A study of Mus musculus with 30 samples.

Results

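Transcripts of 7 genes of MHC class II antigen presentation were followed in quadriceps RNA of 30 mice: the chains H2-Aa, H2-Ab1 and H2-Eb1, the invariant chain Cd74, the transactivator Ciita, and the peptide editor genes H2-DMa and H2-DMb1. They were taken from textbook knowledge of the pathway as the genes that make, guide and switch on classical class II molecules. Earlier results of these data were known when they were chosen. They are 7 of 56748 genes in the deposited count table, and 7 of 7 passed the filter on low counts that left 17518 genes for testing. The remaining class II genes of the mouse, H2-Ea, H2-Eb2, H2-DMb2, H2-Oa and H2-Ob, were read beside them.

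Wild-type FVB/N mice (WT, n = 5) and untreated HSA-LR mice (NT, n = 8) were the reference groups. HSA-LR mice are on the same strain and carry a human skeletal actin transgene with an expanded CTG repeat as a model of myotonic dystrophy type 1. The repeat RNA is made in skeletal muscle, so the model does not carry the disease in immune cells. Mice of all groups were labelled 8 weeks old at the start, treated mice were injected by tail vein, and their muscle was taken 2 weeks after the last injection. L9 is an antisense oligonucleotide against the repeat RNA. Its conjugate with a bottlebrush polymer, pacDNA-L9, was given to 4 mice at a dose of 5.3 mg/kg, to 3 mice at 21.2 mg/kg and to 3 further mice at 42.4 mg/kg, and 3 other mice received the oligonucleotide unconjugated (free L9) at 5.3 mg/kg. The 2 higher doses were reached by repeated injection, with more injections at 42.4 than at 21.2 mg/kg, so that dose and number of injections went together. The treatment controls were polymer without oligonucleotide (Brush, 40 nmol, 2 mice) and a conjugate whose bases were scrambled (pacDNA-Scr, 2 mice, given 5.3 mg/kg). NT against WT asks what the transgene carries with it, and each treated group against NT asks what the agent adds. The 6 treated comparisons share the same NT animals and are therefore not independent of each other.

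Libraries held between 13605309 and 26956558 counts. The labelled tissue was checked with 6 skeletal muscle genes, of which Myh4 was the most abundant at a mean of 42878 CPM (counts scaled to library size), and their sum lay between 92388 and 163604 CPM in all groups. Libraries were deposited as a set of 24 and a later set of 6 (NT animals 7 and 8, 5.3 mg/kg animals C and D, 21.2 mg/kg animal C and free L9 animal C). The sets stood apart on the leading principal component, which held 60.1% of the variance. Mitochondrial genes were at 0 in 5 of the 6 later libraries. Free L9 animal B also stood apart, with 14485 genes detected and 22.3% of counts from mitochondrial genes. Free L9 animal C differed from the other 5 later libraries, with the smallest total of all 30 and 12.0% of counts from mitochondrial genes. All 3 libraries at 42.4 mg/kg came from females and carried a style of column name shared by only 1 NT library, whereas NT held 4 females and 4 males. The deposited set was a term of every test, and a gene was called when its adjusted p lay under 0.05.

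Class II molecules carry peptides of endocytosed protein to CD4 T cells and are made mainly by dendritic cells, macrophages and B cells. Their genes share promoter elements bound by RFX, CREB and NF-Y, to which CIITA is recruited, and interferon gamma switches on Ciita in many further cell types. In bulk samples, fewer cells of a type and less RNA per cell cannot be told apart.

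Levels per kilobase of exon spanned more than 2 orders of magnitude among the 7 genes in the 24 libraries of the earlier set. Cd74 stood highest at 10.1 ± 2.97 CPM per kb (mean ± SD), followed by H2-Ab1 at 1.96 ± 0.789, H2-DMa at 0.719 ± 0.223 and H2-Aa at 0.402 ± 0.169. H2-DMb1 at 0.217 ± 0.118 and H2-Eb1 at 0.136 ± 0.0871 came next and did not differ beyond their spread, and Ciita was lowest at 0.0476 ± 0.0259. Each of the other neighbours differed by more than the larger of their SDs. Counts were small for the low genes: over all 30 libraries the highest count was 24 for Ciita, 17 for H2-Eb1 and 15 for H2-DMb1. Among the other class II genes, H2-DMb2 reached 0.266 ± 0.119 CPM per kb, within the spread of H2-DMb1. H2-Ea stood at 0.0788, H2-Ob at 0.0135 and H2-Oa at 0.00402. H2-Eb2 was at 0 in 29 of 30 libraries, H2-Oa in 23, H2-Ea in 12 and H2-Ob in 11, and only H2-DMb2 of these 5 was tested.

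**Figure D1:**
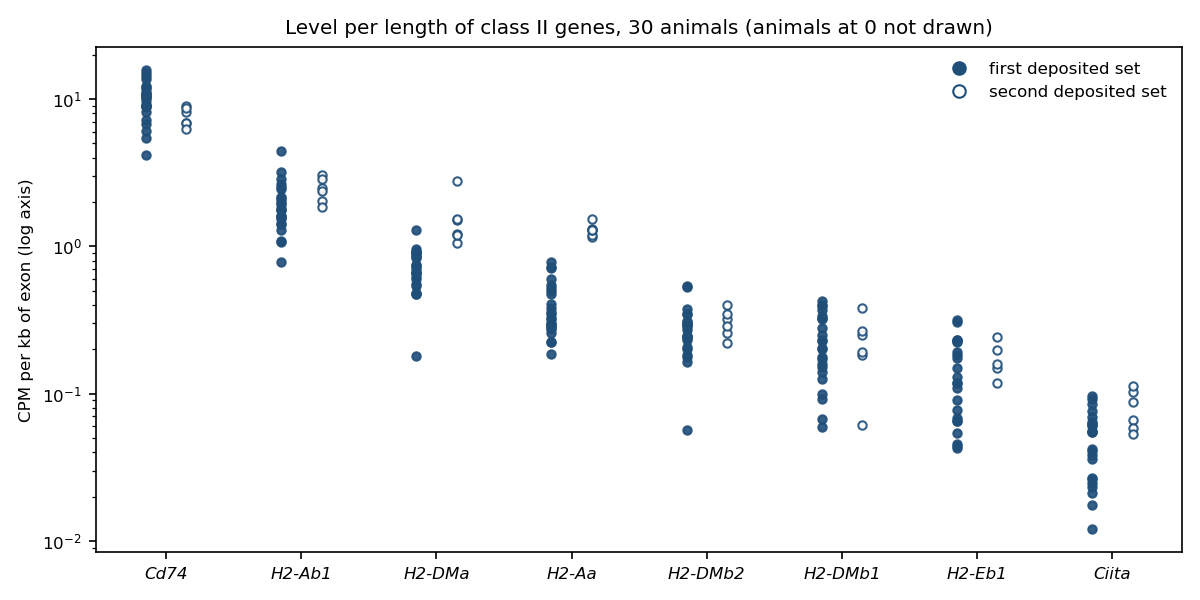
Level of each class II gene in CPM per kilobase of exon in 30 animals, on a log axis; animals at 0 are not drawn.

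H2-Aa encodes the alpha chain of the A molecule. In WT its level was 1.48, 2.36, 0.802, 1.25 and 1.28 CPM. Across NT the lowest was 0.966, the median 1.35 and the highest 5.59 CPM, with animals 7 and 8 of the later set at 5.53 and 5.59 and animal 3 the highest of the rest at 2.56. At 42.4 mg/kg pacDNA-L9 the 3 animals had 3.10, 2.24 and 3.37 CPM. WT animals thus lay among the NT animals of the earlier set, save for 1 below them, and 42.4 mg/kg animals lay above those NT animals, save for animal B, which NT animal 3 exceeded. Levels at 5.3 mg/kg were 1.65, 1.74, 5.11 and 6.57 CPM. At 21.2 mg/kg they were 1.39, 1.53 and 4.98 CPM, and in free L9 3.07, 1.23 and 5.54 CPM. In both groups the animal of the later set was the highest. Brush animals had 1.20 and 2.03 CPM, and pacDNA-Scr animals 1.17 and 2.15, all within the NT range.

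The estimate for H2-Aa at 42.4 mg/kg against NT was a log2 fold change of 1.02 (approximate 95% interval 0.38 to 1.66, 2.02-fold), and its adjusted p of 0.076 in edgeR missed the threshold. DESeq2 placed it inside, with 1.02 and an adjusted p of 0.0388. Omission of NT animal 3 gave 1.21 and 0.0235, omission of free L9 animal A 1.05 and 0.0381, and omission of free L9 animal B 1.00 and 0.0435, each of which called the gene. Omission of 42.4 mg/kg animal C gave 0.89 and 0.297. A term for the style of column name in place of the set gave 0.83 with an adjusted p of 0.458, and the earlier set alone gave 1.07 with 0.14. Without a term for the set the estimate fell to 0.26. For NT against WT the log2 fold change of H2-Aa was 0.00 (-0.58 to 0.59), and between -0.19 and 0.75 across the alternative fits. It was 0.23 at 5.3 mg/kg, 0.01 at 21.2 mg/kg, 0.45 in free L9, 0.18 in Brush and 0.23 in pacDNA-Scr, none of them called.

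H2-Ab1 encodes the beta chain that pairs with H2-Aa. WT animals had 2.81, 3.93, 4.51, 4.65 and 4.06 CPM. In NT the lowest was 2.75, the median 4.63 and the highest 6.26 CPM. Free L9 animals had 7.40, 11.4 and 7.33 CPM and so all lay above every NT animal. Levels at 42.4 mg/kg of 8.16, 5.49 and 5.00 CPM overlapped NT, with only animal A above. At 5.3 mg/kg the values were 5.28, 3.32, 5.20 and 7.79 CPM, and at 21.2 mg/kg 2.00, 5.08 and 6.40 CPM. Brush had 3.66 and 6.49 CPM and pacDNA-Scr 3.63 and 6.79 CPM. In each of these 4 groups the values straddled the middle of NT. The free L9 estimate was 0.88 (0.30 to 1.45, adjusted p 0.143), which omission of free L9 animal C turned into a called 1.11 (adjusted p 0.0358) resting on animal A and on animal B, the library with few genes detected, which held the highest value. Omission of animal B took it down to 0.53 (adjusted p 0.514). Further log2 fold changes of H2-Ab1 were 0.16 for NT against WT, 0.07 at 5.3 mg/kg, -0.14 at 21.2 mg/kg, 0.48 at 42.4 mg/kg (-0.12 to 1.07; 0.22 without animal A), 0.19 in Brush and 0.23 in pacDNA-Scr.

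H2-Eb1 encodes the beta chain of the E molecule. Its values were 0.477, 0.169, 0.201, 0.800 and 0.308 CPM in WT, and in NT 0.114 at the lowest, 0.460 at the median and 0.819 at the highest. At 42.4 mg/kg the animals had 0.281, 0.118 and 0.581 CPM. Free L9 had 0.453, 0 and 0.626 CPM, and 5.3 mg/kg had 0.385, 0.305, 0.308 and 0 CPM. Every group overlapped NT, and 2 libraries held no read of the gene. At 21.2 mg/kg the values were 0.111, 0.336 and 0.386 CPM, in Brush 0.599 and 0.496 CPM, and in pacDNA-Scr 0.234 and 0.141 CPM. Log2 fold changes ran from -1.13 in pacDNA-Scr (-3.11 to 0.84) to 0.41 in Brush (-1.30 to 2.13). Between them lay 0.06 for NT against WT, -0.76 at 5.3 mg/kg, -0.61 at 21.2 mg/kg, -0.27 at 42.4 mg/kg and -0.32 in free L9.

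**Figure D2:**
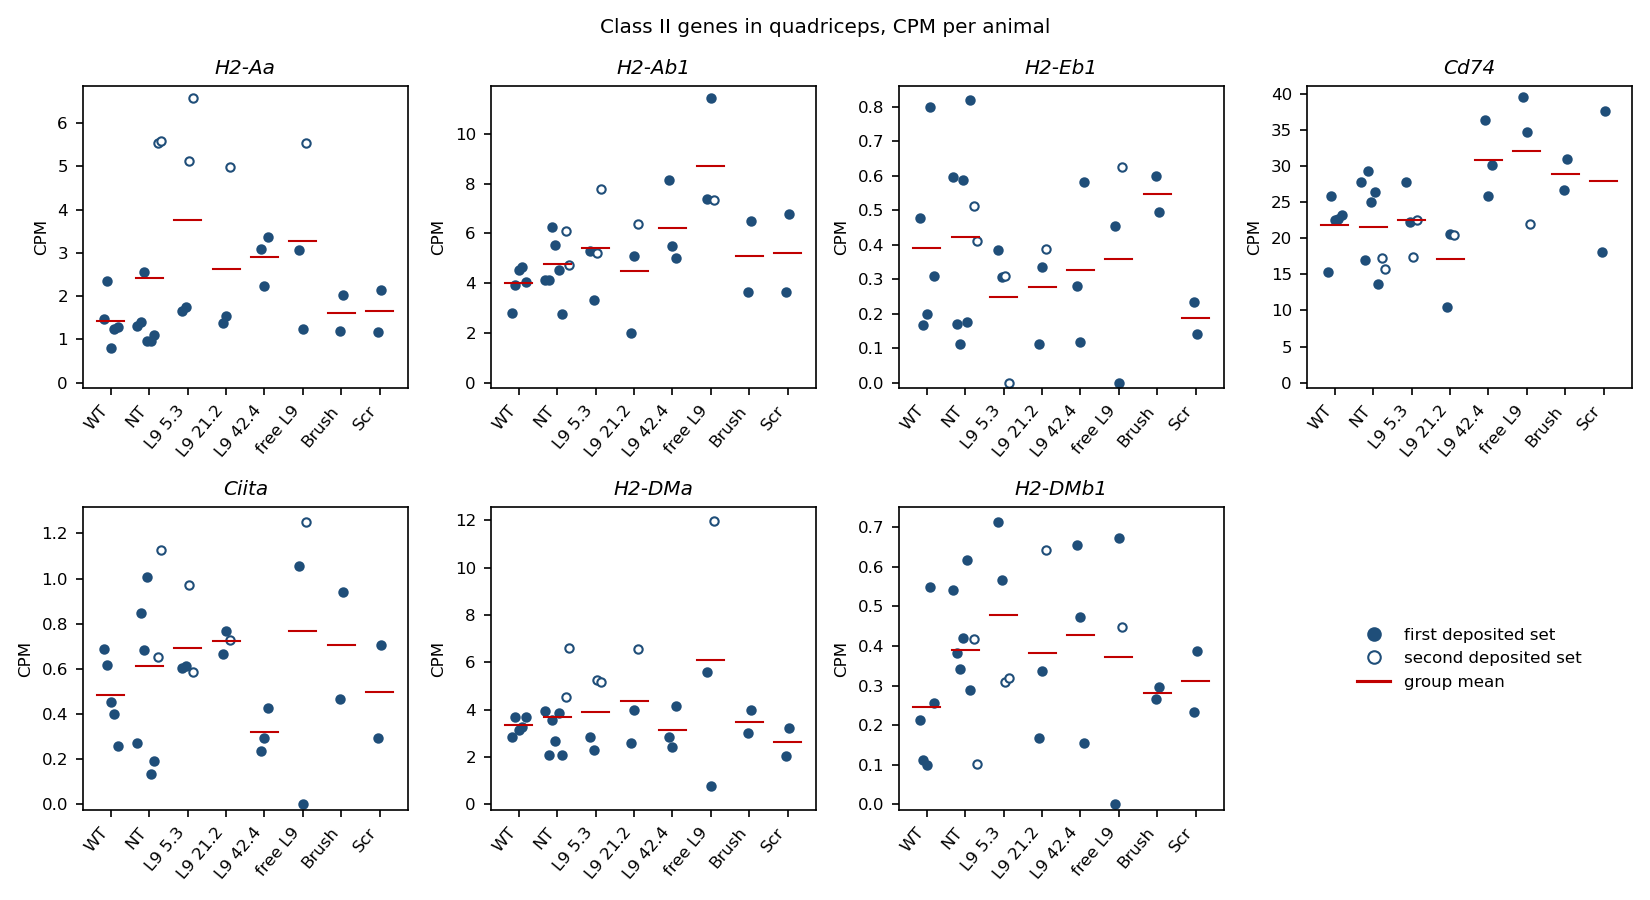
CPM of the 7 class II genes in each animal by group; filled marks are the earlier deposited set, open marks the later set, and the red line is the group mean.

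Cd74, the invariant chain that guides class II dimers to endosomes and holds their groove, was the most abundant of the 7. WT animals had 15.3, 25.8, 22.5, 22.6 and 23.2 CPM. In NT the lowest was 13.7, the median 21.1 and the highest 29.3 CPM. The 42.4 mg/kg animals had 36.3, 25.8 and 30.2 CPM. Of these, animals A and C lay above every NT animal and animal B inside the NT range. Free L9 had 39.6, 34.6 and 22.0 CPM, with animals A and B above NT. At 5.3 mg/kg values were 27.8, 22.2, 17.4 and 22.5 CPM, and at 21.2 mg/kg 10.4, 20.6 and 20.4 CPM. Animal A at 21.2 mg/kg was the lowest of all 30. Brush had 26.7 and 31.0 CPM, and pacDNA-Scr 18.0 and 37.6 CPM. The log2 fold change was 0.45 at 42.4 mg/kg (-0.05 to 0.94, adjusted p 0.457) and 0.59 in free L9 (0.11 to 1.08, adjusted p 0.260). NT against WT gave 0.05 (-0.38 to 0.48), an interval that ends near 1.39-fold. The others were 0.15 at 5.3 mg/kg, -0.26 at 21.2 mg/kg, 0.35 in Brush and 0.31 in pacDNA-Scr.

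Ciita encodes the coactivator on which transcription of the class II genes depends. WT animals had 0.689, 0.618, 0.451, 0.400 and 0.257 CPM. In NT the lowest was 0.132, the median 0.666 and the highest 1.13 CPM. At 42.4 mg/kg the 3 animals had 0.234, 0.295 and 0.426 CPM, in the lower part of the NT range. At 5.3 mg/kg the values were 0.604, 0.611, 0.969 and 0.587 CPM, with animal C apart from the rest, the only outlier among 21 sets of values of a gene in a group that were searched. At 21.2 mg/kg they were 0.666, 0.767 and 0.730 CPM, and free L9 had 1.06, 0 and 1.25 CPM. Free L9 thus held both the lowest and the highest library of the 30. Brush had 0.466 and 0.941 CPM, and pacDNA-Scr 0.293 and 0.704 CPM. The log2 fold change at 42.4 mg/kg was -0.74 (-2.10 to 0.63, adjusted p 0.747), opposite in sign to that of H2-Aa. Elsewhere it was 0.16 for NT against WT, 0.04 at 5.3 mg/kg, 0.22 at 21.2 mg/kg and in free L9, 0.40 in Brush and -0.08 in pacDNA-Scr.

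H2-DMa and H2-DMb1 encode the chains of DM, which exchanges the invariant chain remnant for peptide. H2-DMa had 2.86, 3.71, 3.16, 3.25 and 3.70 CPM in WT, and in NT 2.07 at the lowest, 3.73 at the median and 6.61 at the highest. In free L9 it had 5.58, 0.786 and 12.0 CPM, the lowest and the highest value of all 30 libraries. At 42.4 mg/kg it had 2.86, 2.42 and 4.15 CPM, inside the NT range. H2-DMa had 2.86, 2.31, 5.24 and 5.18 CPM at 5.3 mg/kg and 2.61, 3.98 and 6.57 CPM at 21.2 mg/kg. In both groups the animals of the later set were highest. Brush had 3.00 and 3.96 CPM of H2-DMa, and pacDNA-Scr 2.05 and 3.24 CPM. Its log2 fold change in free L9 was 0.45 (-0.24 to 1.14, adjusted p 0.576), and omission of free L9 animal B made it a called 0.95 (adjusted p 0.047) resting on animals A and C, of which C held the highest value. Omission of animal A took it down to 0.02 (adjusted p 0.979). For H2-DMa the other estimates were -0.20 in NT against WT, -0.23 at 5.3 mg/kg, 0.14 at 21.2 mg/kg, 0.12 at 42.4 mg/kg, 0.26 in Brush and -0.13 in pacDNA-Scr.

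H2-DMb1 was lower, with 0.212, 0.112, 0.10, 0.550 and 0.257 CPM in WT. Its NT values had a minimum of 0.102, a median of 0.400 and a maximum of 0.617 CPM. In both groups the spread exceeded the difference between them. Values at 5.3 mg/kg were 0.714, 0.567, 0.308 and 0.320 CPM, at 21.2 mg/kg 0.167, 0.336 and 0.644 CPM, and at 42.4 mg/kg 0.657, 0.472 and 0.155 CPM. Free L9 had 0, 0.673 and 0.447 CPM, Brush 0.266 and 0.297, and pacDNA-Scr 0.234 and 0.387. All of them overlapped NT. The log2 fold change of 0.68 in NT against WT had an interval from -0.51 to 1.87. The remaining estimates for H2-DMb1 were 0.32 at 5.3 mg/kg, 0.06 at 21.2 mg/kg, 0.08 at 42.4 mg/kg, -0.06 in free L9, -0.50 in Brush and -0.33 in pacDNA-Scr. Its paralog H2-DMb2 had 0.28 in NT against WT (-0.71 to 1.27) and 0.04 at 42.4 mg/kg (-1.09 to 1.18).

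**Figure D3:**
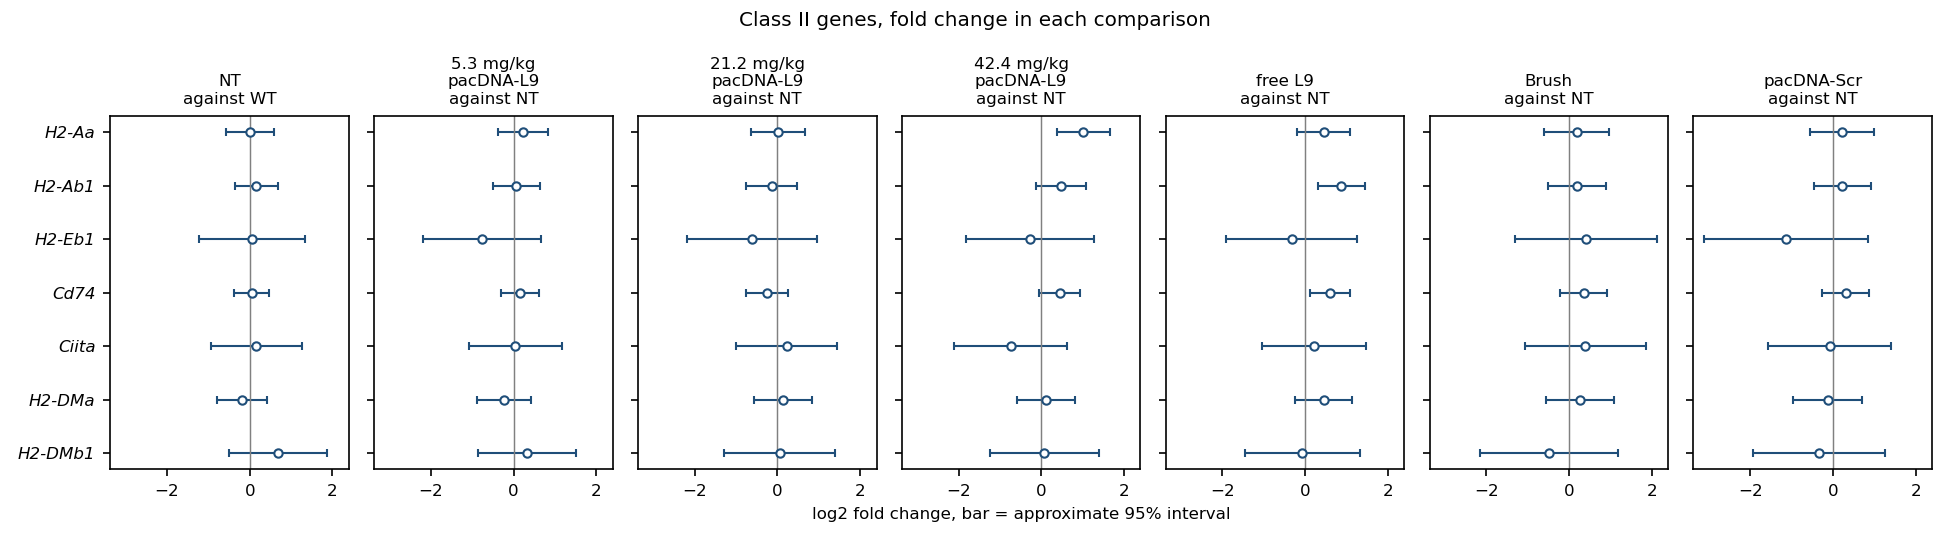
Log2 fold change of the 7 class II genes in 7 comparisons, with approximate 95% intervals from edgeR.

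Counted over comparisons, edgeR called 0 of 7 class II genes in NT against WT (lowest adjusted p 0.641), where it called 930 of 17518 genes, 5.31%. At unadjusted p under 0.05 the count in NT against WT was 0 of 7 beside 2894 of all genes, DESeq2 called 0 beside 1249, and groups did not overlap for 0 of 7 beside 4.72% of all genes. At 5.3 mg/kg edgeR called 0 of 7 class II genes and 0% of all genes, with 0 of 7 beside 277 genes at unadjusted p under 0.05 and 0 beside 7 by DESeq2. Groups there did not overlap for 0 of 7, beside 0.297% of all genes. The 21.2 mg/kg comparison had 0 of 7 called by edgeR beside 12 genes or 0.0685%, 0 beside 388 at unadjusted p under 0.05, 0 beside 24 by DESeq2, and 0 of 7 without overlap beside 0.868%. At 42.4 mg/kg edgeR called 0 of 7 beside 550 genes or 3.14%, with 1 of 7 at unadjusted p under 0.05 beside 2295 of 17518 genes, a similar share. The count of all genes fell to 126 without 42.4 mg/kg animal B. DESeq2 called 1 of 7 at this dose, H2-Aa, beside 805 of 18548 genes or 4.34%. Groups at 42.4 mg/kg did not overlap for 0 of 7, beside 7.00% of all genes.

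In free L9 against NT edgeR called 0 of 7 class II genes beside 165 genes or 0.942%, with 2 of 7 at unadjusted p under 0.05 (H2-Ab1 and Cd74) beside 2421 of 17518 genes, and 0 by DESeq2 beside 525. The count of all genes was 58 without NT animal 7 and 1360 without free L9 animal A. Groups did not overlap for 1 of 7, H2-Ab1, beside 1.21% of all genes. In Brush edgeR called 0 of 7 and 0% of all genes, with 0 of 7 beside 329 genes at unadjusted p under 0.05, 0 beside 5 by DESeq2, and 0 of 7 without overlap beside 2.80%. In pacDNA-Scr the edgeR count was likewise 0 of 7 and 0% of all genes, with 0 of 7 beside 270 genes at unadjusted p under 0.05, 0 beside 1 by DESeq2, and 0 of 7 without overlap beside 2.35%. The median log2 fold change of the 7 genes was 0.06 in NT against WT, 0.07 at 5.3 mg/kg, 0.01 at 21.2 mg/kg, 0.12 at 42.4 mg/kg, 0.45 in free L9, 0.26 in Brush and -0.08 in pacDNA-Scr. That of all genes lay between -0.03 and 0 in each comparison.

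Between the deposited sets H2-Aa and H2-DMa differed more than between any groups, and the other 5 class II genes did not. The set term called these 2 of 7 beside 24.9% of all genes, a share near the background and so not particular to class II. H2-Aa was higher in the later set by a log2 fold change of 1.80 (1.33 to 2.27, adjusted p 2.26e-07): its 6 libraries ran from 4.98 to 6.57 CPM and the other 24 from 0.802 to 3.37 CPM, without overlap. H2-DMa was higher by 1.12 (0.61 to 1.64, adjusted p 7.72e-04). H2-Ab1, which pairs with H2-Aa, had 0.35 (-0.10 to 0.81, adjusted p 0.296) for the same term. What differed between the sets was not stated by the depositors.

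The factors that bind class II promoters were read beside Ciita. Of 7 listed (Rfx5, Rfxap, Rfxank, Nfya, Nfyb, Nfyc and Creb1), 7 were tested and 1 was called at 42.4 mg/kg, beside 3.14% of all genes. Rfx5, a subunit of RFX, fell there by a log2 fold change of -0.96 (-1.42 to -0.50, adjusted p 0.0129), from 6.64 ± 1.66 CPM in NT to 3.33 ± 0.516 CPM. Omission of any 42.4 mg/kg animal lost the call (adjusted p 0.0917 without A, 0.0661 without B and 0.0521 without C), as did the term for column names (0.115). The log2 fold change of Rfx5 at this dose lay between -1.06 and -0.85 across the alternative fits. The fall of Rfx5 and the estimate for H2-Aa had opposite signs. In the interferon gamma axis, 7 of 8 listed genes were tested. Ifng itself was not, and its mean was 0 CPM in every group. Jak2 rose in NT against WT by 0.85 (adjusted p 9.54e-04), and Socs1 fell at 42.4 mg/kg by -1.92 (adjusted p 0.0489), a call lost in most alternative fits.

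Promoters of class II genes could be read for 4 of the 7 (H2-Aa, H2-Eb1, H2-DMa and H2-DMb1) in RefSeq windows of 300 bases on build GRCm38.p6; H2-Ab1, Cd74 and Ciita had no entry. The windows were searched on both strands for GNAAC, a short core of the X box bound by RFX, and for ATTGG, the Y box bound by NF-Y. The order GNAAC then ATTGG with 25 to 32 bases between them, a range chosen after the sequences had been seen, occurred in 3 of the 4 and in 3 of 4 other class II genes with an entry. It occurred in 457 of 32851 promoter windows of the genome (1.39%), whereas GNAAC alone occurred in 84.8% and ATTGG alone in 37.4%. The stretches of the 3 genes follow with motifs in capitals: H2-Aa at chr17:34287861-34287910 on the minus strand, H2-Eb1 at chr17:34305770-34305818 and H2-DMb1 at chr17:34153091-34153140 on the plus strand.
H2-Aa: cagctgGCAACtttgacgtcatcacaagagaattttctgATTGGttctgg
H2-Eb1: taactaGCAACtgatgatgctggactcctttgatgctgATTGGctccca
H2-DMb1: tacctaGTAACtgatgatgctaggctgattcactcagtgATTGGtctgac

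Genes of endosomal processing and class II turnover held more calls at the highest dose. Of 9 listed genes 9 were tested, and 5 rose and 0 fell at 42.4 mg/kg, beside 2.28% of all genes called higher. Ctss, the protease that trims the invariant chain, rose by a log2 fold change of 2.87 (2.23 to 3.51, adjusted p 2.16e-06), from 3.73 ± 1.44 CPM in NT to 25.9 ± 7.65 CPM. Ctsl rose by 0.90 (adjusted p 0.00293), Ctsb by 0.54 (0.0201), Lgmn by 0.66 (0.00817) and Ifi30, the thiol reductase, by 1.05 (0.00598). Omission of 42.4 mg/kg animal B left only Ctss called, with Ctsl at 0.078, Ctsb at 0.187, Lgmn at 0.177 and Ifi30 at 0.162. Omission of animal A lost Ctsb (0.119) and Lgmn (0.058). Under the term for column names Ctsl (0.209), Ctsb (0.351), Lgmn (0.116) and Ifi30 (0.161) were not called. The lowest log2 fold changes over the alternative fits were 0.52 for Ctsl, 0.37 for Ctsb, 0.55 for Lgmn and 0.84 for Ifi30. At 21.2 mg/kg Ctss rose by 1.87 (adjusted p 0.00756), a call lost without animal B (0.404) or animal C (0.282) and in the earlier set alone (0.519). Its estimate there lay between 1.59 and 2.23 across the alternative fits. No gene of the list was called in the other 5 comparisons.

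Antigen presenting cells were read through markers. Of 12 macrophage markers 11 were tested, and 5 of 11 rose at 42.4 mg/kg, beside 2.28% of all genes called higher, while H2-Aa stood at an adjusted p of 0.076. These were Csf1r by a log2 fold change of 0.97 (adjusted p 0.00201), Cd68 by 2.07 (1.02e-04), C1qa by 1.32 (0.00598), C1qb by 1.81 (6.91e-04) and C1qc by 1.48 (0.0016). The summed level of the 12 was 167, 189 and 135 CPM at 42.4 mg/kg, and 64.6, 60.0, 65.3, 63.4, 93.6, 49.3, 78.8 and 63.1 CPM in NT animals 1 to 8. It was 124, 99.1, 103 and 109 CPM at 5.3 mg/kg, and 81.6, 138 and 144 CPM at 21.2 mg/kg. Brush had 115 and 132 CPM, pacDNA-Scr 71.9 and 97.9, and free L9 53.0, 78.4 and 45.5. WT had 68.4, 39.7, 70.6, 55.4 and 48.8 CPM. All animals given pacDNA-L9 at 5.3 or 42.4 mg/kg, or Brush, therefore lay above every NT animal, and free L9 animals did not. At 5.3 mg/kg and in Brush, however, 0 of the 11 tested markers were called by edgeR, beside 0% of all genes. How often such sums do not overlap for other lists was not tested. Csf1r was the most abundant marker at a mean of 17.0 CPM and no marker was at 0 in 15 or more of the 30 libraries. The part of macrophages in the levels of class II genes was not tested. C1qa lost its call without 42.4 mg/kg animal B (0.111), and C1qa (0.102) and C1qb (0.108) lost it under the term for column names. Across the alternative fits their log2 fold changes ran from 1.17 to 1.54 for C1qa and from 1.35 to 1.98 for C1qb. Cd68 also rose in NT against WT by 1.54 (adjusted p 0.00163) and at 21.2 mg/kg by 1.61 (0.0147). The latter call was lost without animal B (0.867) or C (0.298) and in the earlier set alone (0.149), with estimates of 1.39 to 1.86 across the alternative fits.

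Of 10 dendritic cell markers 7 were tested and 0 of 7 were called by edgeR in any comparison. Their median at 42.4 mg/kg was 0.53 with 6 of 7 positive. Xcr1 was the negative one, at -1.08 (0.0129 CPM beside 0.127 in NT). The untested Flt3 (0.0509 beside 0.127 CPM), Batf3 (0.118 beside 0.249) and Ccr7 (0 beside 0.0720) also had lower means than in NT. The highest means of the list were those of Zbtb46 (10.2 beside 6.96 CPM), Clec10a (7.01 beside 3.10) and Irf8 (5.55 beside 3.42). The summed level of the 10 was 23, 27 and 27 CPM at 42.4 mg/kg and 19, 21 and 19 CPM at 21.2 mg/kg, all above the NT animals, which ran from 14 to 18 CPM. The highest animals of WT (18.9 CPM), Brush (19.1 CPM) and pacDNA-Scr (18.3 CPM) exceeded NT too, so that only 42.4 mg/kg lay above every animal of these groups. In free L9 it ran from 7.35 to 14.7 CPM, and its part in the levels of class II genes was not tested. Zbtb46, the most abundant at a mean of 7.28 CPM, had 0.53 at 42.4 mg/kg (0.14 to 0.92, adjusted p 0.158), and Ccr7 was at 0 in 15 or more of the libraries. Among B cell markers, Cd79b was the most abundant at 0.207 CPM and was not tested, and Ms4a1, Fcrla and Cr2 were at 0 in 15 or more of the libraries. In free L9, where H2-Ab1 was highest, the mean of Cd79b was 0.516 CPM beside 0.186 in NT, with overlap between the groups, and that of Ms4a1 was 0.337 beside 0.00580 in NT, with 2 of the 3 free L9 animals at 0. Cd22 had 0.186 CPM in free L9 and 0.221 CPM at 42.4 mg/kg, the latter without overlap with NT at 0.0186 CPM. Other B cell markers at 42.4 mg/kg overlapped NT. Cd79b (0.130 CPM), Pax5 (0.0313 beside 0.0477), Ms4a1 (0) and Fcrla (0 beside 0.0180) had lower means than in NT. Cd79a was among those with a higher mean (0.130 beside 0.0794 CPM). The part of these markers in the levels of class II genes was not tested. Of 8 T cell markers only Cd4 was tested. It rose at 42.4 mg/kg by a log2 fold change of 3.74 (2.31 to 5.17, adjusted p 0.00208), from 0.119 CPM in NT to 1.46 ± 0.171 CPM. Cd3e, Cd3d, Cd3g, Cd8a and Trac were at 0 in 15 or more of the libraries. At 42.4 mg/kg Cd3e had 0.195 CPM beside 0.0345 in NT, without overlap, and Cd2 0.374 beside 0.123, whereas Trac and Cd8a were at 0, beside 0.109 and 0.0628 in NT. Cd4 also had positive estimates of 1.46 at 5.3 mg/kg, 2.22 at 21.2 mg/kg, 2.46 in Brush, 2.21 in pacDNA-Scr and 1.19 in NT against WT. In free L9, where Cd4 was at 0 in every animal, the estimate was -4.27 (-7.68 to -0.86, adjusted p 0.246). None of these was called. Among ligands of costimulation Cd86 fell in free L9 by -2.49 (adjusted p 0.0475), from 0.607 ± 0.133 CPM to 0.136 CPM, a call lost in many alternative fits. Class I genes, which share interferon control with class II, had 0 of 10 called by edgeR in each of the 7 comparisons. Their median at 42.4 mg/kg was -0.26 with 2 of 10 positive, among them the most abundant, H2-D1, at 0.29 (-0.13 to 0.72).

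**Figure D4:**
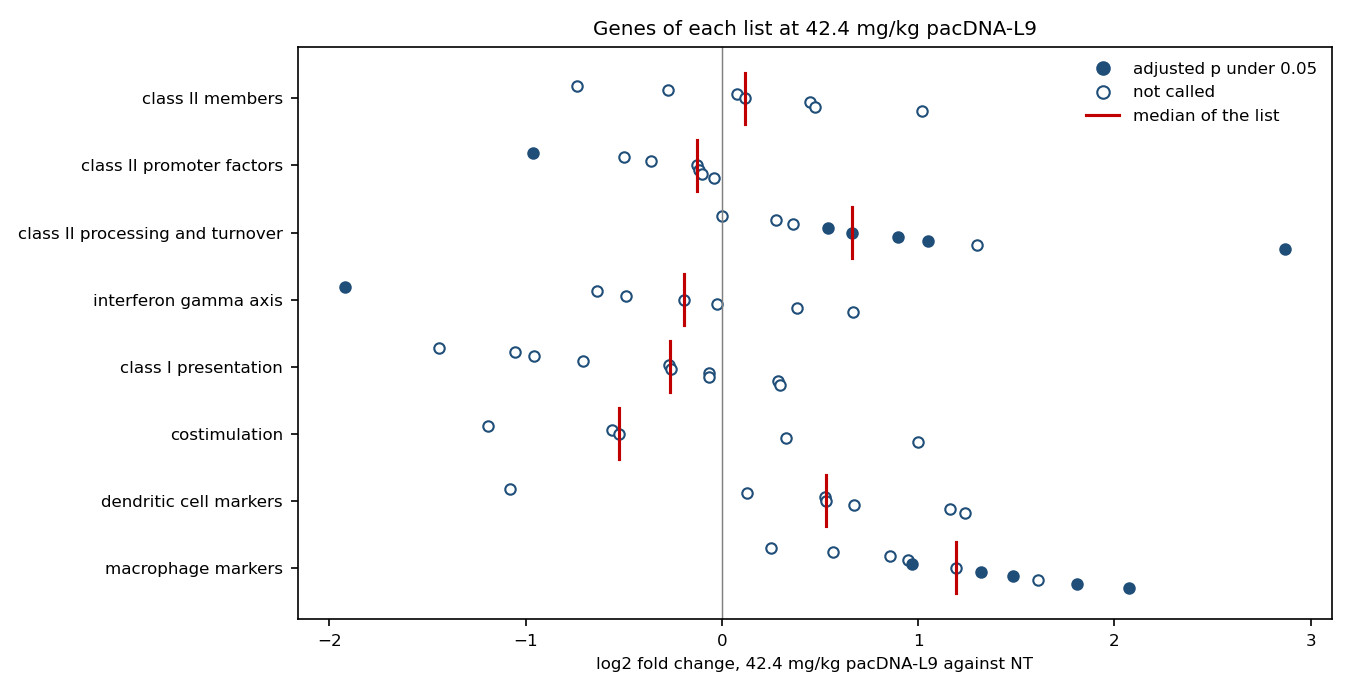
Log2 fold change at 42.4 mg/kg pacDNA-L9 against NT of genes of 8 lists; filled marks have an adjusted p under 0.05 and red lines are medians.

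Sex was read from Xist and genes of the Y chromosome and was uneven between groups. Between females and males 0 of 7 class II genes were called by edgeR, beside 1.12% of all genes. Cd74 was nearest, at a log2 fold change of 0.44 higher in females (0.17 to 0.71, unadjusted p 0.00252 over 30 libraries, adjusted p 0.113). H2-Ab1 had 0.42 (adjusted p 0.311). This coefficient was looked at after the levels of Cd74 had been seen.

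Genes whose level ran most like the mean log level of H2-Aa, H2-Ab1, H2-Eb1 and Cd74 were ranked by Spearman correlation over the 24 libraries of the earlier set, among 12602 genes. The highest were Cd47 (0.765), a gene without symbol (0.763), Nupr1 (0.722), Trmt112 (0.717), Tmem179b (0.712), Asb3 (0.709), Gm30455 (0.706), Rraga (0.703), Copz2 (0.695) and Med7 (0.695). With group means removed the values were, in the same order, 0.383, 0.456, 0.481, 0.612, 0.652, 0.654, 0.267, 0.335, 0.562 and 0.577, so that the order changed within groups.

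Among the class II genes, then, edgeR called none in any of 7 comparisons, and the nearest was H2-Aa at 42.4 mg/kg, whose call turned on the tool and on single animals. Groups of 2 to 8 animals and counts under 25 for Ciita, H2-Eb1 and H2-DMb1 leave wide intervals. The 42.4 mg/kg libraries were all female and shared their style of column name with only 1 NT library. The term for column names rests on groups of mixed style. Among these, WT, NT, Brush and pacDNA-Scr each held 1 library of the style at 42.4 mg/kg. Exons of H2-DMb1 (17.0%) and H2-DMa (11.8%) overlap genes on the opposite strand, and the strand used in counting was not stated. Whether class II alleles of FVB/N map as well as those of the reference strain was not tested. Protein and cell numbers were not measured.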

How the data were processed

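The counts per gene were made by the authors before they were deposited: per their processing notes, reads were aligned to GRCm39 with HISAT2 2.0.5, and the counting options and annotation were not stated. All 30 libraries of the table of counts were used, including 1 column without a label of its own (WT unnumbered). Genes were tested with edgeR 4.0.16 in R 4.3.3 (quasi-likelihood, TMM, filter on low counts, the deposited set as a term, Benjamini-Hochberg over all tested genes), with DESeq2 1.42.0 as an alternative. CPM are counts over effective library size. Intervals are approximate 95% from the F statistic. Class II genes and lists were chosen with earlier results of these data known. Named are the 7 genes, every other class II gene, called genes of further lists or else their most abundant ones, undetected markers, and the 10 genes most alike; genes named only because they define a list are exceptions. Endothelial (5 genes), fibroblast (4), adipocyte (4) and blood leukocyte (1, Ptprc) lists had 0 called by edgeR in the 7 comparisons. Of 6 muscle genes Mb (1.36, adjusted p 9.44e-04) and Myh1 (1.29, 0.0138) rose in NT against WT. Replicates were compared by chi-square per gene: the lowest was 17.7 in WT, so no pair was alike within sampling noise. Alternatives are reported under sensitivity.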

Additional observations from a re-analysis of the deposited data

Results flagged for a closer look

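The level of Ciita in 5.3 mg/kg pacDNA-L9 animal C was 0.969 CPM, apart from the other 3 animals, of which the nearest had 0.611 CPM; the gap is 0.938 of the range of the 4. This was the only one found in a search of 21 sets of values. Animal C belongs to the later deposited set, as does animal D at 0.587 CPM. The cause was not tested.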

How the results depend on the processing

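Of 1818 values of the 7 class II genes under 38 alternative fits, 1727 kept their direction and their side of the threshold, 85 reversed their sign without being called, 6 became called and 0 lost a call. The cause was not tested for any of them. Alternatives chosen after the data had been seen were the coefficients of sex and of the deposited set. Low counts limit H2-Eb1, Ciita and H2-DMb1 most. Where an omission left Brush or pacDNA-Scr with 1 sample, that sample is assumed to vary like the other groups.

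Without a term for the set, log2 fold changes of H2-DMa turned to 0.14 in NT against WT, 0.084 at 5.3 mg/kg, -0.22 at 42.4 mg/kg and -0.077 in Brush. Under that fit Cd74 turned to -0.022 in NT against WT, H2-DMb1 to -0.018 at 21.2 mg/kg, and H2-Aa to -0.58 in Brush and -0.54 in pacDNA-Scr, and free L9 had 22 genes called in place of 165. In the earlier set alone H2-Aa turned to -0.0525 in NT against WT, H2-Ab1 to -0.088 at 5.3 mg/kg, and H2-DMb1 to -0.76 at 21.2 mg/kg and -0.045 at 42.4 mg/kg, with 2 genes called at 21.2 mg/kg in place of 12 and 354 in free L9. With sex as a term H2-Ab1 turned to -0.011 at 5.3 mg/kg, H2-Aa to -0.0031 at 21.2 mg/kg, and H2-DMb1 to -0.076 at 21.2 mg/kg and -0.11 at 42.4 mg/kg, and 4 genes were called in Brush in place of 0. With column naming as a term 240 genes were called at 42.4 mg/kg in place of 550, H2-DMb1 turned to 0.0055 in free L9 and Ciita to 0.13 in pacDNA-Scr. Without the filter on low counts 1 gene was called at 5.3 mg/kg and 2 in Brush, where edgeR otherwise called 0. DESeq2 called 7 genes at 5.3 mg/kg, 24 at 21.2 mg/kg, 525 in free L9, 5 in Brush and 1 in pacDNA-Scr, and 1 class II gene at 42.4 mg/kg.

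With single libraries left out, genes called in NT against WT ran from 704 (without WT 3) to 1585 (without free L9 B). At 5.3 mg/kg they ran from 0 to 1, at 21.2 mg/kg from 2 (without 21.2 B) to 20 (without 21.2 A), and at 42.4 mg/kg from 126 (without 42.4 B) to 945 (without free L9 B). In free L9 they ran from 58 (without NT 7) to 1360 (without free L9 A), in Brush from 0 to 6. Class II genes called ran from 0 to 1 at 42.4 mg/kg and in free L9. Log2 fold changes in NT against WT ran from -0.19 to 0.25 for H2-Aa, -0.21 to 0.49 for H2-Eb1, -0.061 to 0.13 for Cd74 and -0.067 to 0.33 for Ciita. At 5.3 mg/kg they ran from -0.080 to 0.24 for H2-Ab1 and -0.085 to 0.22 for Ciita. Those at 21.2 mg/kg ran from -0.05 to 0.17 for H2-Aa, -0.37 to 0.20 for H2-Ab1, -0.58 to 0.063 for Cd74, -0.063 to 0.26 for H2-DMa and -0.73 to 0.49 for H2-DMb1. For 42.4 mg/kg they ran from -0.98 to 0.086 for H2-Eb1, -0.14 to 0.27 for H2-DMa and -0.41 to 0.49 for H2-DMb1. Free L9 ran from -0.054 to 0.66 for H2-Aa, -0.86 to 0.29 for H2-Eb1, -0.55 to 0.80 for Ciita and -1.07 to 0.61 for H2-DMb1. Brush ran from -0.27 to 0.50 for H2-Aa, -0.30 to 0.54 for H2-Ab1 and -0.22 to 0.79 for Ciita. The range in pacDNA-Scr was -0.29 to 0.58 for H2-Aa, -0.30 to 0.60 for H2-Ab1, -0.32 to 0.74 for Cd74, -0.87 to 0.38 for Ciita and -0.50 to 0.15 for H2-DMa.

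With the replicate number as a replicate block over WT and NT 1 to 4, edgeR called 631 genes, and 680 in the same 8 libraries without the block, beside 930 in all libraries; the planned block of 1 to 5 was not run because the fifth WT column carries no number. With the block no class II gene was called, and Myh1 was not (adjusted p 0.0563), in a fit that also held fewer libraries. Correlations of libraries with the same number were 0.225, 0.0498, 0.0628 and 0.259, not all over 0.1, and not every library correlated best with its own number (NT 4 with WT 2, 0.284), so the samples share only a number.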

Other observations

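Cd74 had a log2 fold change of 0.44 higher in females than in males (0.17 to 0.71, adjusted p 0.113 in edgeR over 30 libraries), and its mean was 26.6 CPM in females and 19.4 CPM in males. The term was chosen after the levels of Cd74 had been seen.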
